A study of Homo sapiens with 12 samples.

Results

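NEAT1 and MALAT1, a pair of long RNAs that stay in the nucleus, were followed through decitabine treatment of HL-60 cells. They were taken by gene symbol from the table of normalised expression, so they are 2 of its 60240 genes, and both passed the filter on low values that left 16152 genes for testing. HL-60 is an established human promyelocytic leukaemia line, used here with wild-type (WT) genotype. The decitabine groups at 6, 72 and 120 h received 100 nM at 0, 24 and 48 h, so that by this schedule the 6 h cells had received the 0 h dose alone. The DMSO groups at 6, 72 and 120 h received vehicle. Decitabine, a deoxycytidine analogue, enters DNA during replication and there locks DNA methyltransferases onto the strand. All groups were the same WT line, plated in duplicate at 100000 cells per mL in 6-well plates, and nothing in the labels says that duplicates were separate cultures, so p-values measure the spread between wells or libraries, which may be technical. Total RNA was depleted of ribosomal RNA, which keeps RNAs without a poly(A) tail, and sequenced as 50-base single-end reads. Each group had 2 libraries except DMSO at 72 h, for which 1 was analysed.

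NEAT1 is made in a short polyadenylated form and a long form, and the long form is the scaffold on which paraspeckles, nuclear bodies rich in RNA-binding proteins, are built. MALAT1 is an abundant RNA of nuclear speckles, where splicing factors collect. The long NEAT1 form and MALAT1 have no conventional poly(A) tail: RNase P cuts each transcript in front of a tRNA-like small RNA, and the new end folds into a triple helix in which an A-rich tract pairs with U-rich stretches. NEAT1 is known to rise in differentiating myeloid cells and under many stresses.

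The genes lie next to each other on chromosome 11, on the same strand. NEAT1 (ENSG00000245532.9) spans chr11:65422774-65445540 and MALAT1 (ENSG00000251562.8) spans chr11:65497688-65506516 on the plus strand of GRCh38 in the GENCODE v29 annotation, which classes both as lincRNA, and 52.1 kb separates them. The long NEAT1 transcript is 1 exon of 22743 bases, the short NEAT1 transcript has 2 exons and 3441 bases, and the main MALAT1 transcript is 1 exon of 8708 bases. The 110 bases before each RNase P cut are shown because they are what sets these RNAs apart from polyadenylated transcripts. The capitals mark the runs of at least 10 bases that the ends of the RNAs have in common, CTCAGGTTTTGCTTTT with its U-rich part and the A-rich tract AAAAAGCAAAA, written as DNA on the transcript strand, 5′ to 3′.
NEAT1 long form, chr11:65445431-65445540: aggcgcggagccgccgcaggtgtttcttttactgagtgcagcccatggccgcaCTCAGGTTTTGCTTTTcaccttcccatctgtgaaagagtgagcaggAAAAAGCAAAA
MALAT1, chr11:65506007-65506116: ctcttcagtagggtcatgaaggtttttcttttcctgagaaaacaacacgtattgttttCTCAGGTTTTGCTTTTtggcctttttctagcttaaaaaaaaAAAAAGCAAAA
MALAT1 tRNA-like RNA, chr11:65506117-65506173: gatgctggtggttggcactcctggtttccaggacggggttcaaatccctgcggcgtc
The A-rich tract is the last sequence before the cut in both RNAs. The tRNA-like RNA of 57 bases that follows MALAT1 is shown as the piece cut off, and the annotation places a like RNA of 58 bases directly after NEAT1. Of 56114 transcripts with a long non-coding type in GENCODE v29, processed transcripts included, 0.00356% hold the U-rich run on their own strand and 0.282% hold the A-rich tract. The 2 that hold both, starting within 150 bases of each other, are 1 from NEAT1 and 1 from MALAT1. The runs were taken from these ends, so that count is a description.

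The table gives 1 value per gene, so the NEAT1 forms could not be separated. Of all 50-base windows of the short transcript, the length of a read, 97.9% also occur in the long transcript, and 14.6% of the long transcript's windows occur in the short. Few windows are shared with transcripts of other genes on the same strand: 1.53% of those in the long NEAT1 transcript and 0.624% of those in MALAT1. All of the shared MALAT1 windows belong to small RNAs annotated inside MALAT1 itself. TALAM1, the antisense transcript of MALAT1, was not found in the table under that symbol. The annotation also places the minus-strand lincRNAs AP000769.2 inside MALAT1 and AP000769.3 between NEAT1 and MALAT1. Their values are not reported here.

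The 11 libraries held an estimated 14427335 to 32908453 counts, and NEAT1 rested on 1213 to 6856 of them and MALAT1 on 12394 to 54463. The granule gene MPO, which marks promyelocytes, was at 86061 to 178350 normalised counts, and all 6 promyelocyte markers were above 0 in all 11 libraries, as the HL-60 label requires. HBB was at 0 in every library, and the epithelial markers summed to at most 1.54. The abundant FP671120.7 RNA made up 3.89 to 10.9% of the counts in the 4 libraries of 120 h and in decitabine 72 h replicate 1, and 0.0424 to 0.794% in the others, while mitochondrial mRNAs took 0.662 to 0.812% and 0.238 to 0.415%. The decitabine 72 h replicates differed by a median of 0.590 (absolute log2 difference over genes), against 0.190 to 0.261 in the other pairs.

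NEAT1 was highest in decitabine cells at 120 h. At 6 h its normalised count was 1111 and 917 in the decitabine libraries, against 1166 and 1521 in the DMSO libraries. At 72 h it was 3454 and 1480 with decitabine, against 1145 in the DMSO library. At 120 h it was 4716 and 4884 with decitabine, against 1763 and 1276 with DMSO. The decitabine values thus lay below the DMSO values at 6 h and above them at 72 and 120 h. Such separation is common with so few libraries, and the share of all genes that show it was not counted. Within a library NEAT1 ranked 396th and 373rd of all genes by normalised count in the 120 h decitabine libraries, against 1534th and 2193rd in the 120 h DMSO libraries.

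MALAT1 was the more abundant RNA in every library and its order of samples differed. Its normalised count at 6 h was 10682 and 12648 with decitabine, against 16330 and 15200 with DMSO. At 72 h it was 20933 and 28424 with decitabine, against 9367 with DMSO. At 120 h it was 40663 and 33866 with decitabine, against 30825 and 13080 with DMSO. The groups did not overlap at any time, which is common with so few libraries. Here too the share of all genes that do so was not counted. DMSO 120 h replicate 1 lay nearer to the decitabine libraries than to its own replicate. MALAT1 ranked 19th and 22nd of all genes in the 120 h decitabine libraries, against 29th and 108th in the 120 h DMSO libraries, and it took 0.295 and 0.257% of all normalised counts, against 0.215 and 0.0873%.

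**Figure D1:**
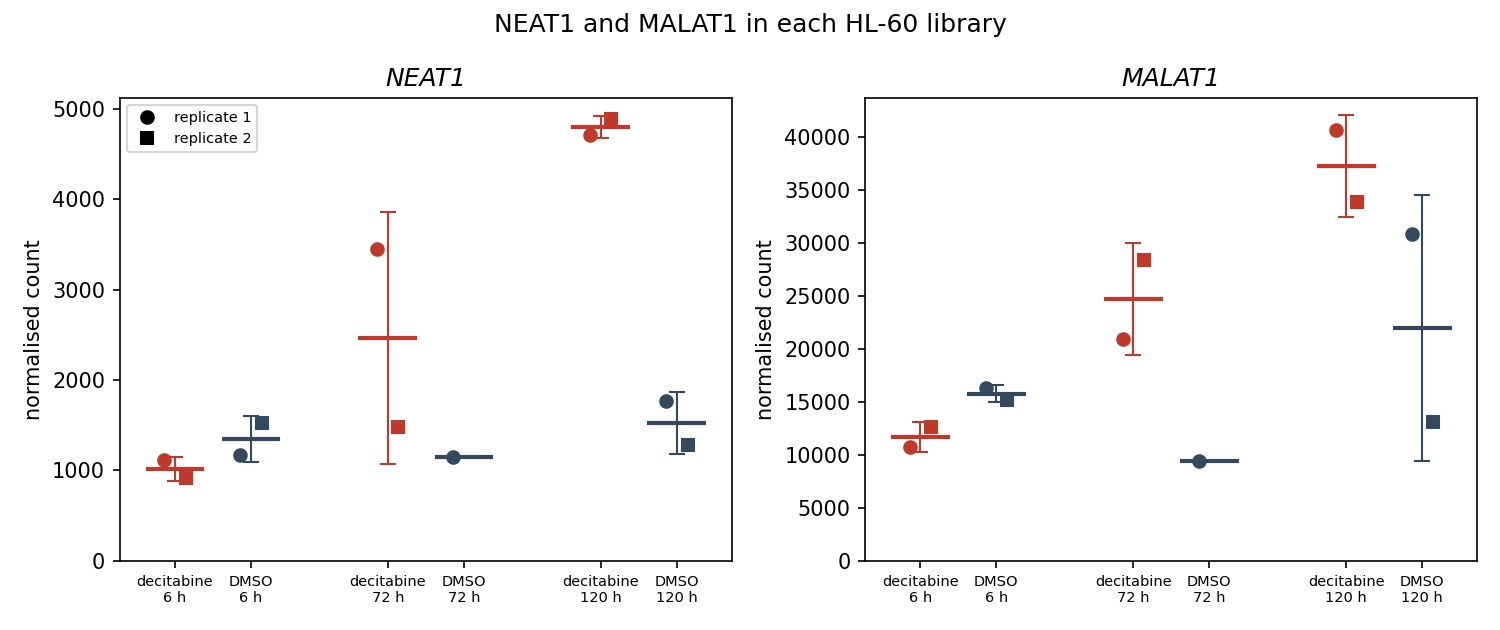
Normalised counts of NEAT1 (left) and MALAT1 (right) in each library by treatment and time, with decitabine in red and DMSO in dark blue. Circles are replicate 1, squares replicate 2, thick bars group means and thin bars the SD of 2 libraries; DMSO at 72 h has 1 library. NEAT1 stands at 4716 and 4884 in decitabine cells at 120 h, and the MALAT1 replicates of DMSO at 120 h stand apart at 30825 and 13080.

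NEAT1 rose under decitabine at 120 h. Its mean was 4800 ± 119 normalised counts in decitabine cells and 1520 ± 344 in DMSO cells (SD, n = 2 each), a difference of 1.68 on the log2(value + 1) scale (SE 0.363, 95% interval 0.85 to 2.51) or 3.20-fold, with an adjusted p of 0.0170 in limma. At this time 15.9% of the genes tested passed the same threshold in either direction and 9.91% were called higher, and NEAT1 stood at rank 1283 of 16152 by fold change, so it was 1 of many genes that rose. In bulk RNA, a higher level per cell and a larger share of cells with a high level cannot be told apart. The difference stayed between 1.44 and 1.91 with any library left out, but the call was lost each time a 120 h library was dropped. Limma's adjusted p became 0.0956 when decitabine replicate 1 of 120 h was dropped and 0.101 for its replicate 2, and it moved just over the threshold for DMSO replicate 1 and to 0.112 for DMSO replicate 2.

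At the earlier times the NEAT1 difference did not pass. At 72 h the mean was 2467 ± 1396 normalised counts in decitabine cells (SD, n = 2) and 1145 in the DMSO library, a log2 difference of 0.98 (95% interval -0.036 to 2.00) with limma's adjusted p at 0.291, and 2.19% of genes were called. The decitabine replicates disagreed: without replicate 2 the difference was 1.59 (limma, adjusted p = 0.0225), and without replicate 1 it was 0.37. At 6 h the means were 1014 ± 137 normalised counts in decitabine cells and 1344 ± 251 in DMSO cells (SD, n = 2 each), a log2 difference of -0.40 (SE 0.363, limma adjusted p = 1). At 6 h limma called 0% of the genes tested, with 541 genes at an unadjusted p under 0.05 and a smallest adjusted p of 0.257. The change of the effect between 6 and 120 h was 2.08 on the log2 scale and missed the threshold in limma (adjusted p = 0.0539), where 5.9% of genes were called; it was called when either decitabine library of 72 h was dropped (limma adjusted p = 0.00297 for replicate 1 and 0.00292 for replicate 2), and these enter that contrast through the shared spread alone. The change from 6 to 72 h was 1.38 (limma adjusted p = 0.326, with 0.613% of genes called) and that from 72 to 120 h was 0.70 (limma adjusted p = 0.780, with 0% called and 1022 genes at an unadjusted p under 0.05). With decitabine 72 h replicate 2 dropped the 6 to 72 h change was called (1.99, limma adjusted p = 0.0344), and with replicate 1 dropped the 72 to 120 h change was (1.31, limma adjusted p = 0.0320); with the other replicate dropped these stood at 0.77 and 0.085.

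MALAT1 was not called against DMSO at any time. At 120 h its mean was 37264 ± 4806 normalised counts in decitabine cells and 21953 ± 12548 in DMSO cells (SD, n = 2 each), a log2 difference of 0.89 (95% interval 0.058 to 1.71) or 1.85-fold, with limma's adjusted p at 0.141. The value rested on DMSO 120 h replicate 1, without which the difference was 1.504 (limma, adjusted p = 0.0201), while without DMSO 120 h replicate 2 it was 0.27. At 72 h the mean was 24679 ± 5297 normalised counts in decitabine cells (SD, n = 2) and 9367 in the DMSO library, a log2 difference of 1.38 (95% interval 0.37 to 2.39) or 2.60-fold, with limma's adjusted p at 0.156. It was called without decitabine 72 h replicate 1 (limma, 1.60, adjusted p = 0.0404). Set against all 5 DMSO libraries in place of the lone 72 h one, the difference was 0.64 (limma, adjusted p = 0.191). At 6 h the means were 11665 ± 1390 in decitabine cells and 15765 ± 800 in DMSO cells (SD, n = 2 each), a log2 difference of -0.44 (limma adjusted p = 1). The MALAT1 effect changed by 1.82 from 6 to 72 h, 1.32 from 6 to 120 h and -0.49 from 72 to 120 h on the log2 scale, with limma's adjusted p at 0.218, 0.179 and 0.821. The 6 to 72 h change was called with decitabine 72 h replicate 1 dropped (2.04, limma adjusted p = 0.0424), and with DMSO 120 h replicate 1 dropped the 6 to 120 h change was called (1.94, limma adjusted p = 0.0375) and the 72 to 120 h change turned to 0.12. The intervals of the MALAT1 difference include 2-fold and more at 72 and 120 h, so the missed threshold does not show that MALAT1 was the same in treated and vehicle cells.

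**Figure D2:**
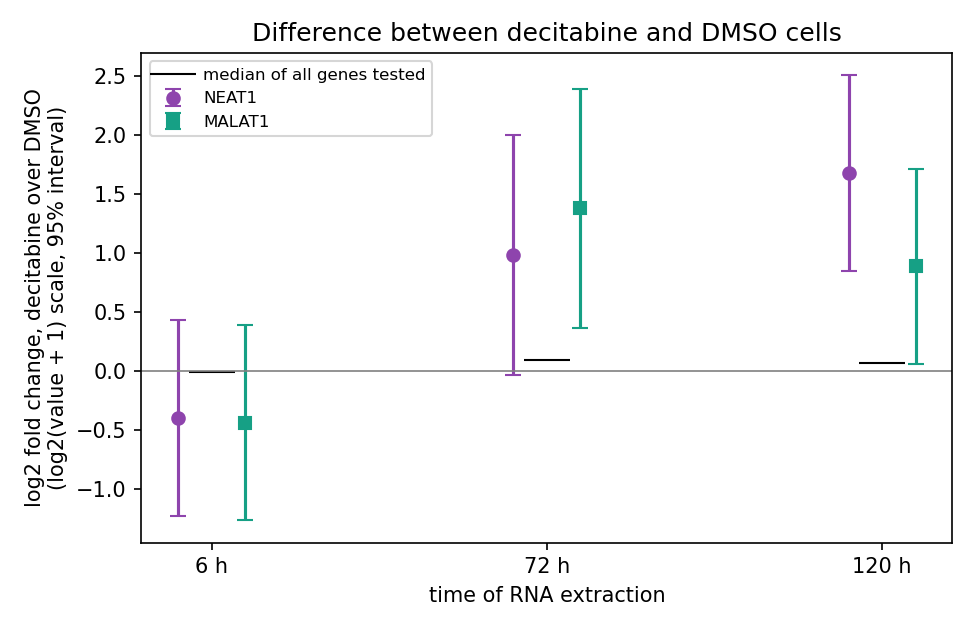
Log2 fold change of decitabine over DMSO cells for NEAT1 (purple circles) and MALAT1 (green squares) at 6, 72 and 120 h, with 95% intervals from limma; black dashes give the median of all genes tested. Both RNAs lie below 0 at 6 h and above it later, and NEAT1 at 120 h, at 1.68, is the value that passed the adjusted threshold.

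Along the time course changes were called in the decitabine cells and none in the DMSO cells. That does not show that the 2 treatments differed in their change. The change of the effect from 6 to 120 h was not called for NEAT1 or MALAT1 (limma adjusted p = 0.0539 and 0.179). NEAT1 was 2.25 higher on the log2 scale at 120 h than at 6 h in decitabine cells (4.75-fold, limma adjusted p = 0.00429), and MALAT1 was 1.67 higher (3.19-fold, limma adjusted p = 0.0149). In that comparison 19.9% of genes were called and 11.9% called higher. The share of FP671120.7 differed between the same decitabine libraries, at 0.0424 and 0.186% at 6 h and 7.31 and 3.89% at 120 h. In DMSO libraries it was 0.794 and 0.493% at 6 h and 8.08 and 10.9% at 120 h. Its part in these changes over time was not tested. The NEAT1 call held in limma with each library left out, with adjusted p-values up to 0.0373. The MALAT1 call was lost when either decitabine library of 6 h was dropped (limma, adjusted p = 0.0966 for replicate 1 and 0.0607 for replicate 2) or of 120 h (0.105 for replicate 1 and 0.0666 for replicate 2). From 6 to 72 h in decitabine cells NEAT1 differed by 1.16 and MALAT1 by 1.07 on the log2 scale (limma, adjusted p = 0.0819 and 0.102), where 9.29% of genes were called. With decitabine 72 h replicate 2 dropped, the NEAT1 value was 1.77 and called (limma adjusted p = 0.00453), and with replicate 1 dropped it was 0.55. The MALAT1 value was called, at 1.29, with decitabine 72 h replicate 1 dropped (limma adjusted p = 0.0444) and, still at 1.07, with DMSO 120 h replicate 1 or 2 dropped (limma adjusted p = 0.0356 and 0.0357). From 72 to 120 h NEAT1 differed by 1.09 and MALAT1 by 0.61 (limma, adjusted p = 0.238 and 0.408), where 0.13% of genes were called. Here NEAT1 was called with decitabine 72 h replicate 1 dropped (1.70, limma adjusted p = 0.00156) and stood at 0.47 with replicate 2 dropped. MALAT1 stood at 0.38 to 0.83 over the libraries dropped, the ends being replicates 1 and 2 of decitabine at 72 h, and was not called.

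In DMSO cells NEAT1 was 0.17 higher on the log2 scale and MALAT1 0.35 higher at 120 h than at 6 h, with adjusted p-values in limma of 1 and 0.989. Limma called 0% of genes there, with 865 at an unadjusted p under 0.05. Through the lone DMSO library of 72 h, MALAT1 differed by -0.75 from 6 to 72 h and by 1.10 from 72 to 120 h. The latter exceeded the 0.61 of decitabine cells over the same interval. For NEAT1 the DMSO values were -0.22 and 0.39. The order of the group means from low to high was, for NEAT1, decitabine 6 h, DMSO 72 h, DMSO 6 h, DMSO 120 h, decitabine 72 h and decitabine 120 h. For MALAT1 the order began with DMSO 72 h and decitabine 6 h and was otherwise the same. No neighbouring pair was called by limma in either order, and the lowest adjusted p among these 10 neighbouring pairs was 0.238, between decitabine at 120 h and at 72 h for NEAT1, the pair that was called when decitabine 72 h replicate 1 was dropped.

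The ratio of MALAT1 to NEAT1 counts does not depend on how a library was scaled. It was 9.61 and 13.8 with decitabine at 6 h, against 14.0 and 9.99 with DMSO. At 72 h the decitabine libraries gave 6.06 and 19.2, the lowest and the highest ratio of the 11 libraries, against 8.18 in the DMSO library. At 120 h the ratio was 8.62 and 6.93 with decitabine, against 17.5 and 10.3 with DMSO, so that the decitabine libraries lay below both DMSO libraries. The log2 difference of the ratio was -0.039 at 6 h, 0.40 at 72 h and -0.79 at 120 h.

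Over the 3 times together the ratio differed by -0.14 on the log2 scale between decitabine and DMSO cells, by an exact permutation test of treatment within time (two-sided, p = 0.778, adjusted p = 0.778). The same exact test gave 0.75 for NEAT1 (p = 0.130, adjusted p = 0.306) and 0.61 for MALAT1 (p = 0.204, adjusted p = 0.306). These 3 tests had 108 arrangements each, of which the smallest possible p is 0.00926, and they average the lower values of 6 h with the higher values of the later times. Without decitabine 72 h replicate 1 the difference of the ratio turned to 0.13. Per kilobase of the longest transcripts MALAT1 stood 15.8 to 50.2 times as high as NEAT1, and per kilobase of the short NEAT1 form it stood 2.39 to 7.59 times as high, since the length to divide by depends on the form that was present.

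**Figure D3:**
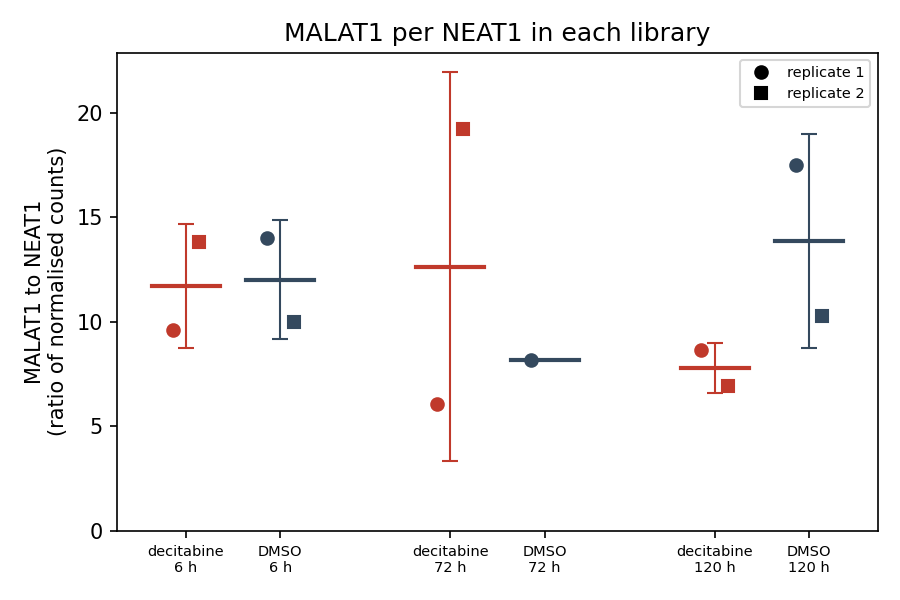
Ratio of MALAT1 to NEAT1 normalised counts in each library by treatment and time, with decitabine in red and DMSO in dark blue; thick bars are group means and thin bars the SD of 2 libraries. The decitabine replicates at 72 h stand at 6.06 and 19.2, and at 120 h both decitabine libraries lie below both DMSO libraries.

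Across the 11 libraries NEAT1 and MALAT1 had a Pearson correlation of 0.790 and a Spearman correlation of 0.873 on the log2 scale, which is a description of libraries that share treatment and time. It was 0.854 (Pearson) without decitabine 72 h replicate 2 and 0.574 without the 2 libraries farthest from the median of NEAT1. Many genes followed NEAT1 more closely than MALAT1 did, which ranked 888th of 10404 genes. The 5 closest to NEAT1 were TPP1, a lysosomal peptidase (0.982), DUSP10, a phosphatase of stress kinases (0.982), BTG1, an antiproliferative factor (0.982), RBL2, a retinoblastoma-family protein (0.980), and ANKIB1 (0.978), all as Pearson correlations over the 11 libraries. TPP1, for example, was at 508 and 509 normalised counts with decitabine at 120 h, against 232 and 210 with DMSO. The 5 closest to MALAT1 were CD46, a complement regulator (0.974), PDXDC2P (0.939), INAFM2 (0.937), TBC1D32 (0.935) and P2RY11 (0.927), and NEAT1 ranked 352nd there.

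NEAT1 was high in the libraries with the highest sums of later granulocyte markers. The 6 later neutrophil markers (ITGAM, S100A8, S100A9, S100A12, LTF and CAMP) summed to 38393 and 41246 normalised counts with decitabine at 120 h, against 7363 and 7031 with DMSO. At 72 h the sums were 18212 and 12927 with decitabine, where NEAT1 was 3454 and 1480, against 8512 with DMSO. At 120 h 4 of the 6 were called higher in limma, where 9.91% of all genes were, and both eosinophil granule genes, EPX and PRG2, were called higher too. S100A8, at 14689 and 14804 with decitabine against 2321 and 2355 with DMSO, and S100A9, at 18672 and 21015 against 4257 and 3805, made up most of these sums. LTF and CAMP were not called, and LTF was lower in the decitabine libraries, at 9.73 and 13.1 against 29.7 and 34.0 with DMSO (log2 difference -1.41, limma adjusted p = 0.104). The T cell receptor genes CD3D and CD3E summed to 145 and 113 with decitabine at 120 h, against 0 and 0.587 with DMSO, with CD3E at no more than 4.62 in any library, and the B cell markers summed to at most 7.93. Whether the makeup of the cultures has a part in the NEAT1 difference was not tested. FP671120.7 took 7.31 and 3.89% of counts in the decitabine libraries and 8.08 and 10.9% in the DMSO libraries of 120 h. At 72 h it took 5.25% in decitabine replicate 1, where NEAT1 was at 3454, and 0.106% in replicate 2, where NEAT1 was at 1480. The part of FP671120.7 in the NEAT1 values was not tested.

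No paraspeckle protein gene was called higher at 120 h, when NEAT1 was. Of 35 listed genes, all tested, 0 were called higher and 4 lower at 120 h, where 9.91% of all genes were called higher and 6% lower. A negative fold change was found in 30 of the 35, where 54.1% of all genes had a positive one. The median log2 fold change was -0.39, against 0.070 over all genes tested. TARDBP, which encodes the NEAT1-binding protein TDP-43, fell to 537 ± 63.3 normalised counts in decitabine cells, against 1081 ± 63.0 in DMSO cells (SD, n = 2 each; log2 difference -1.01, limma adjusted p = 0.0222). DAZAP1 (-0.91, limma adjusted p = 0.00625) and FAM98A (-1.18, limma adjusted p = 0.0402) were also lower.

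The proteins that hold NEAT1 in the paraspeckle core were not called. SFPQ was at 9385 and 9678 normalised counts with decitabine at 120 h, against 13390 and 12015 with DMSO, a log2 difference of -0.41 (limma adjusted p = 0.367). NONO, its partner, differed by -0.83 (limma adjusted p = 0.272) and PSPC1, the third of that family, by 0.074 (limma adjusted p = 0.892). The bridging and remodelling factors RBM14, HNRNPK, HNRNPH3 and SMARCA4 differed by -0.62, -0.40, -0.71 and -0.60 with limma's adjusted p between 0.0586 and 0.321. At 6 and 72 h 0 of the 35 were called, where 0% and 2.19% of all genes were. The count at 120 h depended on the library set: it was 18 when either decitabine library of 72 h was dropped and 2 when either DMSO library of 6 h was. Dropping a 120 h library left 0 for decitabine replicate 2 and 1 for each of the others. Over all genes tested, 969 were called lower at 120 h, and 210 to 2396 with 1 library left out. For genes called higher these were 1601 and 579 to 2544, and the leave-out counts of the lists below stand beside the same ranges.

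Nuclear speckle proteins surround MALAT1. Of 33 listed genes, all tested, 0 were called higher and 3 lower at 120 h, against 9.91% and 6% of all genes, with a median log2 fold change of -0.25 against 0.070 over all genes; the share called lower is near that of all genes. Those called lower were U2AF2, which reads the 3′ splice site (-0.81, limma adjusted p = 0.0295), TRA2B, a splicing activator (-0.58, limma adjusted p = 0.0250), and RNPS1, of the exon junction complex (-0.56, limma adjusted p = 0.0322). SON and SRRM2, which form the speckle scaffold, differed by -0.086 and -0.37 (limma, adjusted p = 0.929 and 0.282), and the splicing factors SRSF1 and SRSF2 by -0.46 and -0.28 (limma, adjusted p = 0.0884 and 0.564). The count of lower genes was 11, with 2 higher, when either decitabine library of 72 h was dropped, and 0 lower when any library of 120 h or of DMSO 6 h was. When counts were scaled by library totals it was 1, with 1 called higher, and under quantile normalisation it was 2, with 3 called higher.

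Genes for the 3′ ends shown above were listed next. Of 17 listed genes 16 were tested, since RPPH1, the RNA of RNase P, was listed at 0 in every library. The structural RNA RN7SK was listed at 0 in every library too, and such zeros do not show that an RNA was absent. Of the 16 tested, 0 were called higher and 4 lower at 120 h, against 9.91% and 6% of all genes. The median log2 fold change was -0.41, against 0.070 over all genes. POP1, a protein subunit of RNase P and RNase MRP, fell to 501 ± 136 normalised counts in decitabine cells, against 1383 ± 119 in DMSO cells (SD, n = 2 each; -1.49, limma adjusted p = 0.00477). RPP40, another subunit, fell to 152 ± 19.4 in decitabine cells, against 337 ± 0.786 in DMSO cells (-1.14, limma adjusted p = 0.00349). ELAC2, which trims the 3′ side of tRNAs and of the MALAT1 tRNA-like RNA, fell to 479 ± 155 in decitabine cells, against 934 ± 99.5 in DMSO cells (-0.998, limma adjusted p = 0.0330).

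METTL16, a methyltransferase that binds the MALAT1 triple helix, fell to 220 ± 17.6 normalised counts in decitabine cells, against 558 ± 211 in DMSO cells (-1.29, limma adjusted p = 0.0182). The count of lower genes in this list was 7 without either decitabine 72 h library, and 2 without decitabine 120 h replicate 2 or DMSO 120 h replicate 1. At 6 and 72 h 0 of the 16 were called, where 0% and 2.19% of all genes were. At 72 h 13 had a negative fold change, with a median of -0.55 against 0.091 over all genes. Transcript levels of these proteins are all that was measured: cutting and trimming of NEAT1 and MALAT1 ends cannot be read from gene-level values.

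Of 7 transcription factors known to drive NEAT1, 5 were tested and 0 were called at 120 h, where 15.9% of all genes were called in either direction. CEBPB, a factor of granulocyte and macrophage differentiation, was at 344 and 419 normalised counts with decitabine, against 203 and 175 with DMSO (log2 difference 1.01, limma adjusted p = 0.130). RUNX1 was at 1080 and 927 with decitabine, against 760 and 714 with DMSO (0.44, limma adjusted p = 0.0937). For both genes the 120 h groups did not overlap, which is common with so few libraries, and the share of all genes was not counted. HIF1A, HSF1 and RELA differed by 0.15, -0.44 and -0.39 with adjusted p-values in limma between 0.205 and 0.538, and EPAS1 and ESR1 were under the filter. With either decitabine library of 72 h dropped, 2 factors were called higher and 1 lower.

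**Figure D4:**
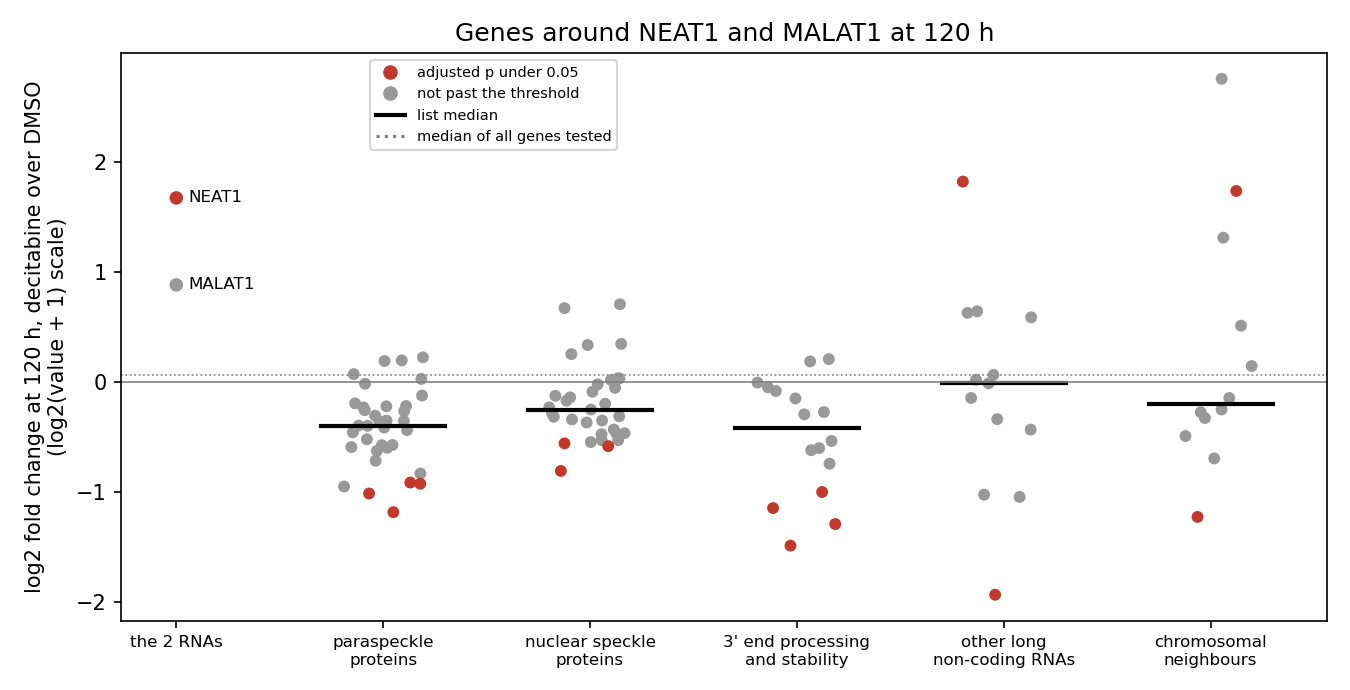
Log2 fold change at 120 h, decitabine over DMSO, of NEAT1 and MALAT1 and of each tested gene in 5 lists; red points passed the adjusted threshold in limma, grey points did not, black bars are list medians and the dotted line is the median of all genes tested. The medians of the paraspeckle, speckle and 3′ end lists lie at -0.39, -0.25 and -0.41, below NEAT1 at 1.68 and MALAT1 at 0.89.

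Of 15 listed neighbours of NEAT1 and MALAT1 on chromosome 11, 12 were tested, and at 120 h 1 was called higher and 1 lower, near the 9.91% and 6% of all genes. FRMD8, the nearest upstream gene at 9.2 kb from NEAT1, differed by 0.51 (limma adjusted p = 0.526). LTBP3, a binding protein of latent TGF-beta 32.3 kb downstream, was higher at 23.1 and 16.9 normalised counts with decitabine, against 4.67 and 5.83 with DMSO (log2 difference 1.74, limma adjusted p = 0.0139). These DMSO values were its lowest in any library, as DMSO cells had 12.9 and 14.3 at 6 h and 22.05 at 72 h. Decitabine cells had 19.0 and 14.5 at 6 h and 19.4 and 19.2 at 72 h. ZNRD2, 63.9 kb downstream, was lower at 77.9 and 94.8 with decitabine, against 179 and 229 with DMSO (-1.22, limma adjusted p = 0.00888), and was lower at 72 h too (-1.63, limma adjusted p = 0.0249), where 0.31% of genes were called lower.

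With libraries of 120 h dropped, the LTBP3 call was lost for decitabine replicate 1 and each DMSO replicate, and the ZNRD2 call for decitabine replicate 1 and DMSO replicate 2. Dropping decitabine 72 h replicate 2 gave 2 neighbours called higher. SLC22A20P, at 49.9 and 9.25 with decitabine and 3.28 and 1.65 with DMSO, differed by 2.76 (limma adjusted p = 0.0652). It passed the low-value filter through decitabine libraries alone, as no DMSO value of any time was above 5.21. Among the others POLA2, DPF2, TIGD3, SLC25A45, FAM89B, EHBP1L1 and MAP3K11 were not called, and CDC42EP2 and KCNK7 were listed at 0 in every 120 h library. AP000769.1, a transcribed pseudogene between NEAT1 and MALAT1 that was picked for its position, had 30.3 and 21.0 normalised counts with decitabine at 120 h, against 14.7 and 10.1 with DMSO (0.99, limma adjusted p = 0.131).

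Of 13 other long non-coding RNAs listed, all tested, 1 was called higher and 1 lower at 120 h, near the 9.91% and 6% of all genes. The count of higher was 4 when counts were scaled by library totals, 3 under quantile normalisation and 0 without the low-value filter. HOTAIRM1, a myeloid RNA of the HOXA cluster, was at 20.7 and 24.4 normalised counts with decitabine, against 8.81 and 3.48 with DMSO (log2 difference 1.83, limma adjusted p = 0.0421). No DMSO library of any time had it above 9.44, so it passed the low-value filter through decitabine libraries alone. Its call is a description for that reason. FIRRE, a nuclear RNA made from the X chromosome, was lower at 458 and 539 with decitabine, against 1812 and 1988 with DMSO (-1.93, limma adjusted p = 0.00303). The count of higher genes in this list was 4, with 3 lower, when either decitabine library of 72 h was dropped, and 0 higher when a library of decitabine 6 h, DMSO 6 h or decitabine 120 h, or DMSO 120 h replicate 2, was dropped. Of 5 abundant structural RNAs tested, 1 was called lower at 120 h, where 6% of all genes were. This was the spliceosomal RNU2-1, at 9622 and 9760 normalised counts with decitabine at 120 h, against 14957 and 22622 with DMSO (-0.92, limma adjusted p = 0.0271). Of the 13 mitochondrial mRNAs 0 were called at 6, 72 or 120 h, where 0%, 2.19% and 15.9% of all genes were. Their median log2 fold change was -0.41 at 6 h, with 13 of 13 negative, 0.92 at 72 h, with 11 positive, and -0.38 at 120 h, with 12 negative, so that its sign was that of NEAT1 and MALAT1 at 6 and 72 h and the opposite at 120 h; its part in their values was not tested. The RNU2-1 call was lost when a library of DMSO 6 h or decitabine 120 h, or DMSO 120 h replicate 2, was dropped.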

How the data were processed

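The deposited values are a normalised signal per gene: estimated counts divided by 1 factor per library, as the values show, since 59.4 to 65.3% of low values in a library are whole multiples, within 0.01, of that library's own step. The submitters' processing notes name hg38, Salmon 1.2.1, STAR, featureCounts, DESeq2 and limma without role or order, and the sources used here do not say which of them made these values or how strand was counted. These steps do not give back whole counts for every gene, so count models were not used, and depths are estimates from the steps. Per the file headers there are 12 library names over 11 value fields. Names were taken to begin over the symbol field, which leaves DMSO 72 h replicate 2 not analysed here. Replicates then differed by 0.299 (mean of the median absolute log2 differences) and libraries of different groups by 0.439, against 0.429 and 0.426 in the other reading, and all values by group depend on it.

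Values were tested as log2(value + 1), which understates the change of low genes, with a filter of at least 10 in at least 2 libraries. In R 4.3.3, limma 3.58.1 (lmFit, eBayes with trend) fitted 1 mean per group to all 11 libraries, with 5 residual degrees of freedom. The lone DMSO 72 h library was taken to vary as the other groups do. Two-sided p-values were adjusted by Benjamini-Hochberg over all 16152 genes, with calls at an adjusted p under 0.05. The fit was tested on simulated data. Sequences came from GENCODE v29 (GRCh38). Named list genes were core members and those called with the largest changes at 120 h; neighbours were named from the whole list; the 5 closest genes were taken by Pearson correlation among genes with a mean of at least 50. Values of some listed genes are not reported here. The members and lists were chosen with earlier results of these data known. Alternatives were other pseudocounts, no filter, other scalings, no trend, sample weights, a replicate block, all DMSO libraries as control, each library left out and, added after seeing the data, the spread of the libraries of 1 time alone.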

Additional observations from a re-analysis of the deposited data

How the results depend on the processing

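NEAT1 at 120 h kept its call under every alternative that kept all 11 libraries except without the low-value filter (1.68, limma adjusted p = 0.0571). The change of its effect from 6 to 120 h was called with a pseudocount of 10 (2.07, limma adjusted p = 0.0475) and with sample weights (2.08, 0.00219), as was MALAT1 at 120 h with sample weights (0.89, 0.0467). Without the filter the MALAT1 call between 120 and 6 h in decitabine cells was lost too (1.67, 0.0512). With each library left out the log2 difference for NEAT1 was 1.44 to 1.91 at 120 h and 0.37 to 1.59 at 72 h, and its change between times 0.77 to 1.99 (72 minus 6 h), 1.84 to 2.31 (120 minus 6 h) and 0.085 to 1.31 (120 minus 72 h). For MALAT1 it was 0.27 to 1.504 at 120 h and 1.16 to 1.60 at 72 h, and its change 1.60 to 2.04, 0.71 to 1.94 and -1.11 to 0.12, the last turning at DMSO 120 h replicate 1. The ratio gave -0.42 to 0.13. In DMSO cells from 6 to 120 h, NEAT1 (-0.062 to 0.40; -0.020 without DMSO 6 h replicate 1) and MALAT1 (-0.27 to 0.97) changed sign. The cause was not tested.

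Replicate numbers did not pair the samples (correlations of same-numbered deviations -0.0777 to 0.124), and a replicate block left NEAT1 at 120 h at 1.68 and changed no call of either RNA. Scaling by totals moved the median of all genes at 120 h by 0.118 and at 72 h by -0.193, and quantile normalisation by -0.167 and -0.135; against that median NEAT1 at 120 h stood at 1.61 in the main scaling and 1.61 and 1.86 in these. Of the 35 paraspeckle genes 28 and 30 were negative in these, with 2 and 7 called lower, and their median minus that of all genes was -0.21 under quantile normalisation, against -0.46 in the main scaling. The count called lower was 8 under median-ratio scaling without FP671120.7 and mitochondrial genes, 15 with sample weights, 14 with the spread of 120 h alone, 2 without the trend and 1 without the filter. Over all genes the count called lower was 690 to 2322 under the alternatives other than leaving a library out. The genes called at 120 h numbered 1601 higher and 969 lower, and 579 to 2544 and 210 to 2396 with 1 library left out. At 72 h they numbered 303 and 50, and 124 to 2684 and 13 to 2072. With 1 DMSO library, leaving it out gave no value at 72 h. NEAT1 rested on at least 1213 estimated counts in a library, and the 2 libraries a group limited the tests.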
